A study of Mus musculus with 2 samples.

Results

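The enzymes that turn arachidonic acid into prostaglandins, thromboxane and leukotrienes were described at the level of their messenger RNA in wound monocytes and macrophages. The 9 genes, Ptgs1, Ptgs2, Ptges, Hpgds, Tbxas1, Alox5, Alox5ap, Ltc4s and Lta4h, were found by symbol among the 31053 features of the matrices. Their unique molecular identifiers (UMIs, tags that count single captured mRNA molecules) were summed over the cells in which 500 or more genes were found and mitochondrial transcripts made up less than 10% of the UMIs. The samples were 2 libraries of the 10x Chromium 3′ platform, labelled non-diabetic and diabetic, from enzymatically digested mouse skin wounds on day 6 after injury. Each pooled cells of 2 mice, and the labels name neither the strains nor the diabetic model, so strain, mouse and diabetes cannot be told apart. With 1 library per condition nothing was tested, and all intervals are 95% exact intervals that cover counting error only, treating each UMI as independent.

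The filter kept 1123 non-diabetic cells with 15429273 UMIs and 1755 diabetic cells with 30435047 UMIs, at medians of 14079 and 16314 UMIs per cell. The labelled cell type was checked with Csf1r, the receptor gene of the monocyte and macrophage growth factor, which had a UMI in 87.3% and 95.2% of the cells. Marker lists of mast cells, basophils, eosinophils, T and NK cells, B cells and keratinocytes each summed to at most 8.74 CPM in either library, where CPM gives a gene's UMIs relative to all UMIs of the cells summed. Lists of platelet, neutrophil and endothelial markers are not among these and are given below. A total of 1 cell barcode was shared between the libraries among kept cells.

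Cyclooxygenases convert arachidonic acid, released from membranes by phospholipases, into prostaglandin H2, which separate synthases then turn into prostaglandin E2, prostaglandin D2 or thromboxane A2. Along the other branch, arachidonate lipoxygenase and its activating protein make leukotriene A4, which is either hydrolysed to leukotriene B4, a neutrophil attractant, or joined to glutathione to give leukotriene C4. In skin wounds prostaglandin E2 widens vessels and acts on pain fibres and macrophages, and macrophages can make every one of these products. Which product a cell can make therefore depends on which of these enzymes it holds together.

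The cyclooxygenase genes are Ptgs1 (ENSMUSG00000047250, chr2:36230426-36252272, plus strand), usually made at a steady level, and Ptgs2 (ENSMUSG00000032487, chr1:150100031-150108227, plus strand), an inducible gene. Ptges (ENSMUSG00000050737, chr2:30889471-30929863, minus strand) encodes the inducible microsomal synthase that completes prostaglandin E2. Gene coordinates are those of GENCODE M21 on mm10. The 250 bases upstream of the RefSeq start of these 3 genes are shown because these genes make up the prostaglandin E2 route, to which the Ptges difference between the libraries belongs. RefSeq promoter windows (GRCm38.p6) were found for 8 of the 9 genes.

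Each line reads 5′ to 3′ on the gene's own strand ends at the base before the start, and capitals mark motif matches. The windows are chr2:36230176-36230425 (plus strand), chr1:150099781-150100030 (plus strand) and chr2:30903298-30903547 (minus strand), the last inside the longer GENCODE span of Ptges.
Ptgs1: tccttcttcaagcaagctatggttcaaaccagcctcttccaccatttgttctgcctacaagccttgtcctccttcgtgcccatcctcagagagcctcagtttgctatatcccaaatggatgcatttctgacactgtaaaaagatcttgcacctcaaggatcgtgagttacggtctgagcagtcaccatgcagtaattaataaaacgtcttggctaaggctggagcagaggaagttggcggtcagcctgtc
Ptgs2: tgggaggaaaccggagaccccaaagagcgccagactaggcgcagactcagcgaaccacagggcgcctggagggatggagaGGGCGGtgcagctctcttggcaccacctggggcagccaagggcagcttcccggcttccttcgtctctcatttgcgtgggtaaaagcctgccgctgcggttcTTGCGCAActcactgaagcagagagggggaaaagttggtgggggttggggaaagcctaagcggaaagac
Ptges: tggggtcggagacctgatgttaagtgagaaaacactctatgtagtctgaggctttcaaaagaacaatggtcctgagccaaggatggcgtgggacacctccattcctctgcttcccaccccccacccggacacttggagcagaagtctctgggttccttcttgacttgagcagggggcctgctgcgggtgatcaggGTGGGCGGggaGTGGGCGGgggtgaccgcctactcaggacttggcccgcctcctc

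Motifs were sought as exact letters on both strands of 300-base windows, 250 bases before and 50 after the start, for 7 motifs. These were the TATA box (TATAAA), the E-box (CACGTG), the core of the cAMP response element (ACGTCA), the C/EBP palindrome (TTGCGCAA), the GC box (GGGCGG), the Egr core (GTGGGCG) and the AP-1 site (TGANTCA). Ptgs2 held the palindrome TTGCGCAA at positions -69 to -62 from the start, a sequence present in 0.183% of 32851 mouse promoter windows, and GGGCGG at -170 to -165, present in 35.7%. Just after its start lay ACGTCA at positions 13 to 18, overlapping CACGTG at 17 to 22, which 7.51% and 7.15% of windows hold. Ptges held GTGGGCG at -55 to -49 and again at -44 to -38, each overlapping a GGGCGG, and 7.97% of windows hold GTGGGCG. In the Ptgs1 window these letters were not found. A match is a description of the letters and not a shown binding site.

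Between the libraries as a whole, 4 of the 9 genes were at least 1.5-fold higher in the diabetic library (Ptges, Alox5, Hpgds and Ltc4s) and 1 was at least 1.5-fold lower (Ptgs2). Among all 12337 genes with at least 20 UMIs, 18.7% were higher and 12.9% were lower by that rule. The counts of 4 and 1 held with no minimum of UMIs, where 26.1% and 21.8% of genes were called, and with at least 100 UMIs, where 15.2% and 9.85% were. The median log2 ratio of the 9 genes was -0.09, beside 0.12 for all measured genes. The 9 genes did not share a direction, and Ptges had the ratio farthest from 0.

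Ptges had 488 UMIs in the non-diabetic library, or 31.6 CPM, and 6266 UMIs in the diabetic library, or 206 CPM. It was 6.50-fold higher in the diabetic library, a log2 ratio of 2.70 (interval 2.57 to 2.84). Its ratio turned to -0.15 when the Stfa3-led cluster, a diabetic-only cell state described below, was left out, and rose to 5.69 when the Inhba-led cluster was left out. The Stfa3-led cluster gave 88.8% of the diabetic and the Inhba-led cluster 90.8% of the non-diabetic Ptges UMIs. These shifts follow from those shares, the clusters were chosen after the data were seen, and the cause of the library difference was not tested.

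Ptgs2 had 33205 UMIs (2152 CPM) in the non-diabetic and 41033 UMIs (1348 CPM) in the diabetic library, and was found in 77.7% and 65.4% of cells. It was 1.60-fold lower in the diabetic library (log2 ratio -0.67, interval -0.70 to -0.65). Without the Inhba-led cluster, almost wholly non-diabetic, the ratio changed sign to 0.49, and without the Cd163-led cluster it was -0.56, within 1.5-fold. Ptgs1 stood at 6.09 and 5.75 CPM, from 94 and 175 UMIs, with an interval of the log2 ratio from -0.45 to 0.29 that spans 0.

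The prostaglandin D2 synthase gene Hpgds (ENSMUSG00000029919, chr6:65117293-65144908, minus strand) had 77 UMIs in the non-diabetic library (4.99 CPM) and 278 in the diabetic library (9.13 CPM). That was a 1.82-fold difference, a log2 ratio of 0.87 (interval 0.50 to 1.26), which shrank to 0.18 when each cell was thinned to 5000 UMIs and to 0.49 without the Inhba-led cluster, both within 1.5-fold. Tbxas1, the thromboxane synthase gene (ENSMUSG00000029925, chr6:38875404-39084585, plus strand), was measured at 68.8 CPM in non-diabetic and 56.3 CPM in diabetic cells (log2 ratio -0.29, interval -0.40 to -0.18). Its level thus lay within 1.5-fold between the libraries.

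Of the leukotriene genes, Alox5, encoding the lipoxygenase itself (ENSMUSG00000025701, chr6:116410077-116461178, minus strand), rested on 108 UMIs in the non-diabetic and 472 in the diabetic library. Its level was 7.0 CPM against 15.5 CPM, 2.21-fold higher in the diabetic library (log2 ratio 1.14, interval 0.84 to 1.46). Without the clusters that came almost wholly from 1 library its ratio was 0.25. Alox5ap, encoding the activating protein that presents arachidonate to the lipoxygenase (ENSMUSG00000060063, chr5:149264767-149288153, plus strand), was at 1152 and 980 CPM and was found in 94.9% and 97.5% of cells. In the collagen-rich, diabetic Ctsk-led cells described below (median 38217 UMIs), where its level was 49.2 CPM, a UMI was still found in 63.9% of cells, and in 17.6% after thinning to 5000 UMIs. The lipoxygenase gene itself had a UMI in 5.88% of the cells in the non-diabetic library and 17.5% in the diabetic one.

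Ltc4s, encoding leukotriene C4 synthase (ENSMUSG00000020377, chr11:50236461-50238616, minus strand), reached 29.7 CPM in non-diabetic and 51.2 CPM in diabetic cells, 1.72-fold higher (log2 ratio 0.79, interval 0.63 to 0.94). Without the Cd163-led macrophage-like cluster the ratio was -0.19, after thinning to 5000 UMIs it was 0.15, and without the 5% of cells with the most UMIs it was 0.51. Lta4h, encoding the hydrolase that makes leukotriene B4 (ENSMUSG00000015889, chr10:93453411-93484875, plus strand), was at 44.9 and 33.3 CPM (log2 ratio -0.43, interval -0.57 to -0.29). Exons of Alox5ap, Ltc4s, Ptgs1 and Tbxas1 overlap genes on the opposite strand, and the strand setting of the counting is not given in the sources used here. No member has a near-identical copy in the GENCODE M21 transcripts, at 95% identity over at least 200 bases.

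**Figure D1:**
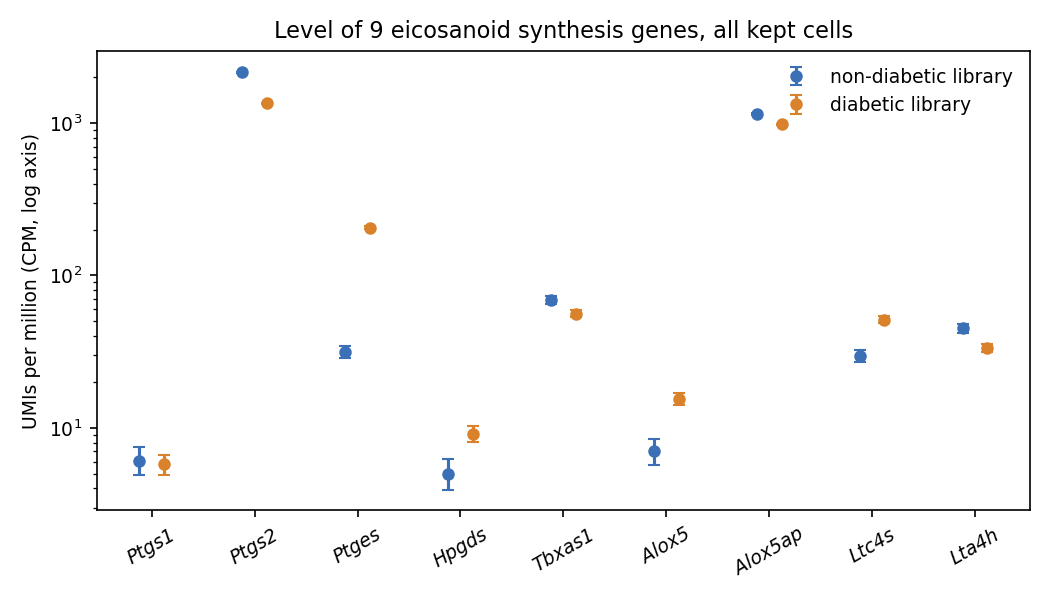
Level of each of the 9 genes over all kept cells of the non-diabetic and the diabetic library, in CPM on a log axis, with 95% exact Poisson intervals. Ptges stood at 31.6 CPM in the non-diabetic and 206 CPM in the diabetic library, while Alox5ap stood at 1152 and 980 CPM.

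Cell states were found by clustering both libraries jointly without the 9 genes and without 51 other genes of the pathway, and each cluster is called by its leading gene. In 11 of the 15 clusters more than 90% of the cells belonged to 1 library, so cell state and library often could not be told apart. Non-diabetic cells made up most of the clusters led by Inhba, Pdpn and Nt5e (338 of 341 cells), by Chil3 and Rsad2 (255 of 281) and by Ccl24 and Lpl (79 of 87). Diabetic cells made up all 296 of the Stfa3-led cluster and most of those led by Lyz1 (245 of 272), Tmem176b (249 of 265), Fabp4 (233 of 239), Cd163 (198 of 204) and Hspa1b (84 of 86). Both libraries filled clusters led by Ccl8 (51 non-diabetic and 169 diabetic cells) and Cd209a (115 and 54).

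By their markers, the Chil3-led cluster was classical monocyte-like, led also by interferon-induced genes. The Ccl8-led and Cd163-led clusters were macrophage-like, and the Cd209a-led cluster was conventional dendritic cell-like. A neutrophil-like Retnlg-led cluster held 15 cells, too few to compare. The Inhba-led, Stfa3-led, Lyz1-led, Tmem176b-led, Fabp4-led, Ccl24-led and Hspa1b-led clusters stayed unnamed, as did a Gm42418-led cluster of low depth (median 4378 UMIs) and a Ctsk-led cluster with collagen genes (median 34569 UMIs). The Fabp4-led cluster had Aqp1, Plvap and Ptprb, genes known from endothelium, among its 10 genes of highest fold, beside Ccl5, Il6 and Il1b. The 5-gene endothelial list stood at 54.0 CPM in its diabetic cells, 52.5 CPM in the non-diabetic Inhba-led and 613 CPM in the diabetic Ctsk-led cells, and its part in the levels below was not tested. Levels were compared over 15 combinations of cluster and library with at least 30 cells each.

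Ptgs2 was highest in the non-diabetic Inhba-led cells at 5589 CPM (interval 5516 to 5663), followed by the diabetic Stfa3-led cells at 3121 CPM, the diabetic Fabp4-led cells at 2611 CPM and the non-diabetic Chil3-led cells at 1823 CPM. The lowest levels were 68.4 CPM in the diabetic Tmem176b-led cells and 126 CPM in the diabetic Ctsk-led cells. Intervals of neighbours in this order overlapped between the Gm42418-led and Cd163-led cells and, step by step, among the Hspa1b-led, Cd209a-led and Ccl8-led diabetic cells, and nowhere else in it. After thinning to 5000 UMIs, a Ptgs2 UMI was found in 95.8% of 289 Inhba-led and in 16.7% of 234 diabetic Tmem176b-led cells.

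Because the wounds were enzymatically digested, an 11-gene list of immediate early and heat-shock genes was summed beside Ptgs2, which is itself an immediate early gene. The list stood at 9359 CPM in the Inhba-led cells and at 6760 CPM in the Stfa3-led cells, both high in Ptgs2, and at 26053 CPM in the Hspa1b-led cells, where Ptgs2 was 553 CPM. Over the 15 combinations the Spearman correlation of Ptgs2 with the list was 0.18, a description over points that share libraries. The Hspa1b-led cluster is led by the heat-shock genes Hspa1b and Hspa1a, and the list was written after the clusters were seen. The list's level in that cluster can thus reflect how its genes were chosen. The part of digestion in the Ptgs2 levels was not tested. Slc7a11, a cystine transporter gene, the neutrophil chemokine gene Cxcl2 and the inflammasome gene Nlrp3 followed Ptgs2 most closely, with correlations of 0.99, 0.96 and 0.96 among 6625 genes screened.

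Ptgs1 was far lower. Its highest levels were 11.8 CPM in the diabetic Cd163-led, 11.3 CPM in the non-diabetic Inhba-led and 10.9 CPM in the diabetic Fabp4-led cells, and their intervals overlapped. It had 1 UMI in the non-diabetic and 0 in the diabetic Cd209a-led cells, where the exact interval of the latter reaches 3.80 CPM. Ptgs1 rested on 94 and 175 UMIs in all, too few to set its range across cell states against that of Ptgs2.

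Ptges was concentrated in 1 cluster of each library. The diabetic Stfa3-led cells held it at 967 CPM (interval 942 to 993), with a UMI in 91.5% of 282 thinned cells (interval 87.6% to 94.5%). Next came the non-diabetic Inhba-led cells at 111 CPM (17.0% of cells) and the diabetic Fabp4-led cells at 104 CPM (16.4%), which overlapped, and the diabetic Cd163-led cells at 50.3 CPM (15.9%). In every other combination the level was at most 13.7 CPM. The Cd209a-led cells, of median depth near that of the Stfa3-led cells (19578 and 19456 UMIs), had 1 UMI in each library, so the level there was near 0.

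The Stfa3-led cells were 16.9% of the diabetic cells and gave 88.8% of the diabetic Ptges UMIs. The Inhba-led cells were 30.1% of the non-diabetic cells and gave 90.8% of the non-diabetic Ptges UMIs. Ptges was also among the 10 genes with the highest fold of the Stfa3-led cluster, although it was left out of the clustering. The 10-gene neutrophil list summed to 19838 CPM in these cells, with 9 of the 10 genes found and Ly6g at 0, beside 12.6 to 2015 CPM in the other compared combinations and 132705 CPM in the neutrophil-like cluster. Its part in the Ptges level was not tested. Jag1, a Notch ligand gene, and Csf3, the granulocyte growth factor gene, were among the 3 genes most like Ptges in pattern, with correlations of 0.91 and 0.88.

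**Figure D2:**
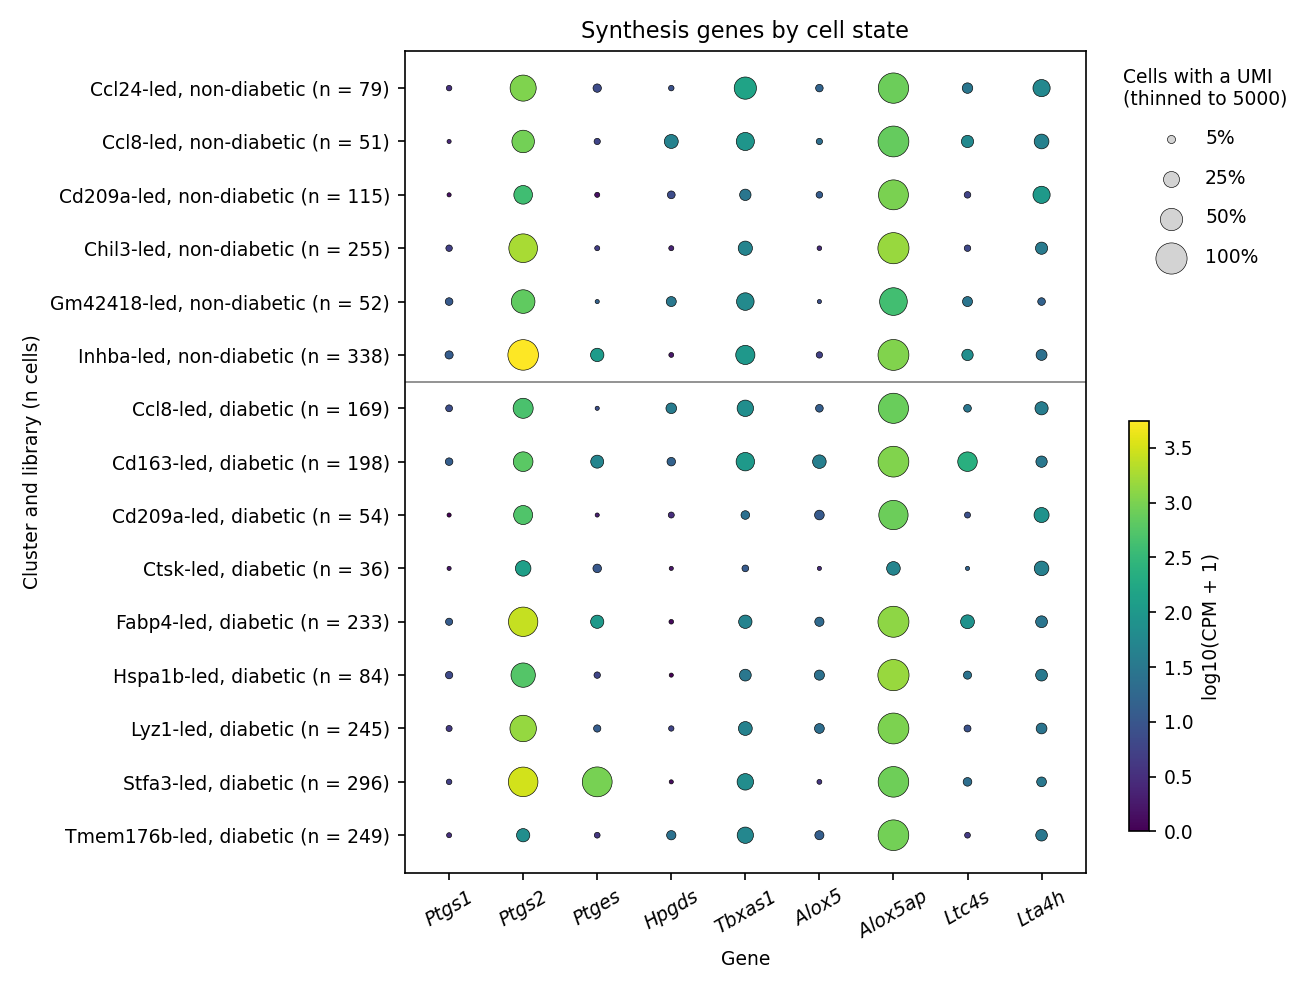
The 9 genes (columns) in the 15 combinations of cluster and library (lines, with their number of cells), with colour giving the level as log10(CPM + 1) and dot area the share of cells with a UMI after thinning to 5000 UMIs. Ptges was at 967 CPM in the diabetic Stfa3-led cells, Ltc4s at 228 CPM in the diabetic Cd163-led cells, and Alox5ap was low only in the Ctsk-led cells at 49.2 CPM.

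Hpgds had another distribution. It was highest in the macrophage-like Ccl8-led cells, at 43.6 CPM in the non-diabetic (interval 28.8 to 63.5) and 35.7 CPM in the diabetic library (29.3 to 43.1). Levels of 30.8 CPM in the Gm42418-led cells, from 9 UMIs, and 23.8 CPM in the diabetic Tmem176b-led cells came next and overlapped these. The diabetic Ccl8-led, Tmem176b-led and Cd163-led cells gave 38.8%, 31.7% and 19.8% of the diabetic Hpgds UMIs. In the cells richest in Ptges the gene was near 0, at 0.35 CPM in the Stfa3-led and 0.75 CPM in the Inhba-led cells.

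Mast cells, a known source of prostaglandin D2 and leukotriene C4, were looked for with 8 markers. The list had 0 UMIs in the non-diabetic Ccl8-led and the diabetic Cd163-led cells, 9 UMIs in the diabetic Ccl8-led and 6 UMIs in the diabetic Tmem176b-led cells, and 0 in the non-diabetic Gm42418-led cells. The part of mast cells in the Hpgds levels was not tested. Ptgds, the other prostaglandin D2 synthase gene, had 0 UMIs in both libraries.

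Tbxas1 had UMIs in all 15 combinations, from 10.6 CPM in the Ctsk-led cells upward. The non-diabetic Ccl24-led cells were highest at 150 CPM (interval 129 to 173), above the diabetic Cd163-led cells at 102 CPM and the non-diabetic Inhba-led cells at 97.8 CPM, whose intervals overlapped. The dendritic cell-like cells were near the bottom, at 29.0 CPM in the non-diabetic and 22.7 CPM in the diabetic library. A Tbxas1 UMI was found in 36 of 72 thinned Ccl24-led cells and in 3 of 50 thinned diabetic Cd209a-led cells.

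Platelets also make thromboxane. The 6-gene platelet list summed to 100 and 89.0 CPM in the libraries, of which Ppbp alone gave 1527 and 2686 UMIs, whereas Gp9 had 1 UMI in each. In the Ccl24-led cells, where Tbxas1 was highest, the whole list had 4 UMIs. The part of platelets in the Tbxas1 levels was not tested.

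Alox5ap was found throughout the leukocyte clusters. Over the 15 combinations its level ran from 1467 CPM in the diabetic Hspa1b-led cells to 410 CPM in the Gm42418-led cells, with the Ctsk-led cells far below at 49.2 CPM. The non-diabetic Chil3-led monocyte-like cells, at 1466 CPM, overlapped the Hspa1b-led cells, and the diabetic Fabp4-led cells followed at 1271 CPM, below both intervals.

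Alox5 was lower and more restricted. Among the compared combinations, the diabetic Cd163-led cells stood highest at 39.0 CPM (interval 33.2 to 45.6), with a UMI in 17.5% of 189 thinned cells. The 6 non-diabetic Cd163-led cells, too few to compare, had 4 Alox5 UMIs (73.6 CPM, interval 20.1 to 189). The Hspa1b-led (22.9 CPM), non-diabetic Ccl8-led (21 CPM), Lyz1-led (21 CPM) and Fabp4-led cells (18.4 CPM) followed with overlapping intervals. In the non-diabetic Chil3-led monocyte-like cells Alox5 was at 1.92 CPM, and in the Ptges-rich Stfa3-led cells at 2.96 CPM. Mrc1, the mannose receptor gene, was among the 3 genes most like Alox5 in pattern, with a correlation of 0.85.

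Ltc4s was highest in the same diabetic Cd163-led cells, at 228 CPM (interval 213 to 243), with a UMI in 38.1% of thinned cells. The diabetic Fabp4-led cells stood at 79.0 CPM, the non-diabetic Inhba-led cells at 67.8 CPM and the non-diabetic Ccl8-led cells at 56.6 CPM, with overlapping intervals. The Cd163-led cells were 11.3% of the diabetic cells and gave 59.5% of the diabetic Ltc4s UMIs, while the Inhba-led cells gave 59.2% of the non-diabetic ones. The monocyte-like Chil3-led cells were low, with 5.50 CPM in the non-diabetic library.

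Lta4h was highest in the dendritic cell-like Cd209a-led cells, at 102 CPM in the non-diabetic (interval 89.6 to 116) and 78.3 CPM in the diabetic library (61.7 to 98.0), with intervals that overlapped. The Ccl24-led cells came next at 54.4 CPM, with an interval (42.4 to 68.7) that overlapped that of the diabetic Cd209a-led cells. The Inhba-led cells, at 22.8 CPM, were among the lowest. The genes of the final steps thus peaked in different cells, Lta4h in the dendritic cell-like cluster and Ltc4s in the Cd163-led macrophage-like cluster, where Alox5 was highest too.

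**Figure D3:**
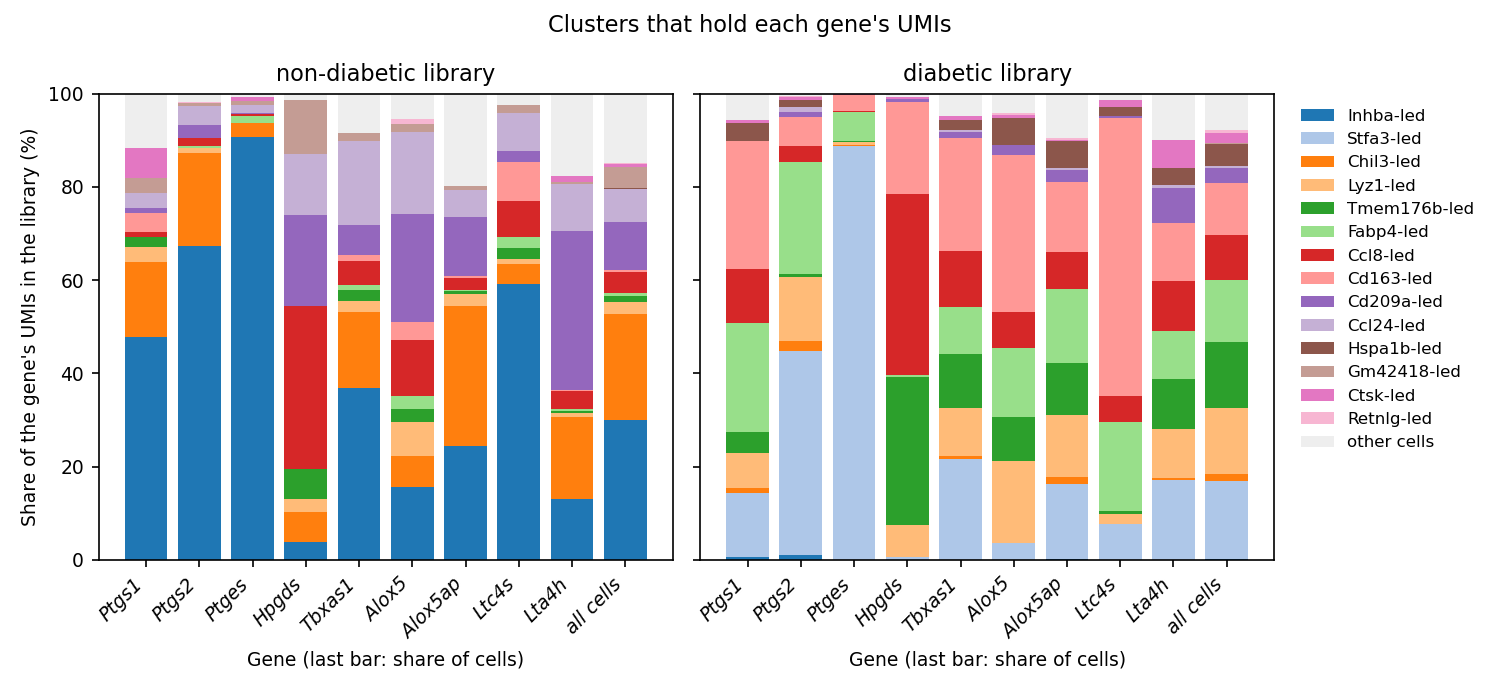
Share of each gene's UMIs (percent, stacked to 100) that came from each named cluster or from other cells, in the non-diabetic and the diabetic library, with the share of cells as the last bar. The Inhba-led cluster gave 90.8% of the non-diabetic and the Stfa3-led cluster 88.8% of the diabetic Ptges UMIs, against 30.1% and 16.9% of the cells.

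Cells with at least 1 UMI of every gene that a mediator needs, here called its route, were counted after thinning each cell to 5000 UMIs. This left 982 non-diabetic and 1661 diabetic cells, with 141 and 94 shallower cells left out. A cell without such UMIs may still hold the transcripts, since 1 UMI in 5000 is near the lowest level that can be seen. A cell with them need not have made them, because free RNA can add UMIs to any droplet. Ptgs2 UMIs were found in at least 16.7% of the thinned cells of every compared combination, the lowest share being that of the diabetic Tmem176b-led cells (median 15108 UMIs before thinning). For Ptges the lowest shares were 0 of 50 diabetic and 1 of 110 non-diabetic Cd209a-led cells. The part of free RNA in the cyclooxygenase step of the 3 prostanoid routes was not tested.

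The prostaglandin E2 route, a cyclooxygenase gene with Ptges, was found in 56 of 982 non-diabetic cells (5.70%, interval 4.34% to 7.34%) and in 297 of 1661 diabetic cells (17.9%, 16.1% to 19.8%). Unthinned, the shares were 9.17% and 23.1%. In the diabetic library 82.6% of the Stfa3-led, 16.0% of the Fabp4-led and 7.94% of the Cd163-led cells held the route, and in the non-diabetic library 16.6% of the Inhba-led and 5.56% of the Ccl24-led cells. Of cells with Ptges, 93.3% of 60 non-diabetic and 86.1% of 345 diabetic cells also had Ptgs2. Of the cells without Ptges, 67.7% and 48.1% had it. These shares pool all clusters, and most cells with Ptges lay in clusters where Ptgs2 was common. In the diabetic Stfa3-led cluster 233 of 258 thinned cells with Ptges held the route, beside Ptgs2 in 89.7% of all its thinned cells. In the non-diabetic Inhba-led cluster it was 48 of 49, beside 95.8%.

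Thromboxane A2, needing a cyclooxygenase gene and Tbxas1, had its route in 21.1% of the non-diabetic cells (interval 18.6% to 23.8%) and 11.3% of the diabetic cells (9.78% to 12.9%). The unthinned shares were 37.0% and 32.3%. The Ccl24-led cells led with 38.9% and the Inhba-led cells followed with 34.9%, both non-diabetic, while the diabetic Stfa3-led cells reached 23.8%. This was the route found most often in the non-diabetic library, and it overlapped the prostaglandin E2 route in 13 non-diabetic and 75 diabetic cells. Those overlaps were 23.2% and 25.3% of the cells with the prostaglandin E2 route, and 6.28% and 40.1% of those with the thromboxane route.

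Prostaglandin D2 had its route in 9 non-diabetic cells (0.916%, interval 0.420% to 1.73%) and 13 diabetic cells (0.783%, 0.417% to 1.34%), without thinning 2.67% and 3.30%. The share in the non-diabetic Ccl8-led cells was 9.30% of 43 cells. No cell held both this and the prostaglandin E2 route, which 5.70% and 17.9% of all cells held. None of the 22 non-diabetic and 49 diabetic cells with Hpgds had a Ptges UMI (intervals 0% to 15.4% and 0% to 7.25%). Of the cells without Hpgds, 6.25% and 21.4% had one, so the non-diabetic interval includes the share without Hpgds. Only 40.9% and 22.4% of those Hpgds cells had Ptgs2, against 69.9% and 57.0% of the cells without Hpgds. The shares with and without Hpgds pool all clusters.

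Leukotriene routes were rare at this depth. Alox5, Alox5ap and Lta4h, for leukotriene B4, were found together in 4 non-diabetic cells (0.407%, interval 0.111% to 1.04%) and 16 diabetic cells (0.963%, 0.552% to 1.56%). Alox5, Alox5ap and Ltc4s, for leukotriene C4, were found together in 3 non-diabetic cells (0.305%, 0.0630% to 0.890%) and 29 diabetic cells (1.75%, 1.17% to 2.50%). Of these 29 cells, 17 were Cd163-led, 8.99% of that cluster's 189 thinned cells. The leukotriene B4 route was also found in 4 of those 189 cells (interval 0.58% to 5.33%). It was found in 1 of 50 thinned diabetic Cd209a-led cells (0.0506% to 10.6%). These intervals overlapped, so the thinned counts did not order the Cd163-led and Cd209a-led cells for leukotriene B4. Without thinning, 31.8% of the diabetic Cd163-led cells held the leukotriene C4 and 21.2% the leukotriene B4 route, against 9.26% for leukotriene B4 in the diabetic Cd209a-led cells. Without thinning the leukotriene B4 route was found in 2.32% and 8.26% of cells and the leukotriene C4 route in 1.87% and 6.50%.

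At 1 UMI of each gene 3 of the 5 routes were more frequent in the diabetic library after thinning, and 4 without thinning, where the prostaglandin D2 route joined them. The thinned leukotriene B4 intervals of the libraries overlapped. The prostaglandin D2 order was the reverse after thinning (0.916% and 0.783%), with overlapping intervals. At 2 or more UMIs of each gene the prostaglandin E2 route was more frequent there, at 2.75% and 12.9%. The prostaglandin D2 and both leukotriene routes then had 0 diabetic cells, so they could not be compared. Pooled over clusters, 4 of 71 non-diabetic (5.63%) and 29 of 157 diabetic cells (18.5%) with Ltc4s had Alox5. Of the cells without Ltc4s, 1.87% and 5.65% had it. No cell of either library held both the prostaglandin E2 and the leukotriene C4 route. The former was found in 5.70% and 17.9% of all cells and the latter in only 3 and 29 cells.

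**Figure D4:**
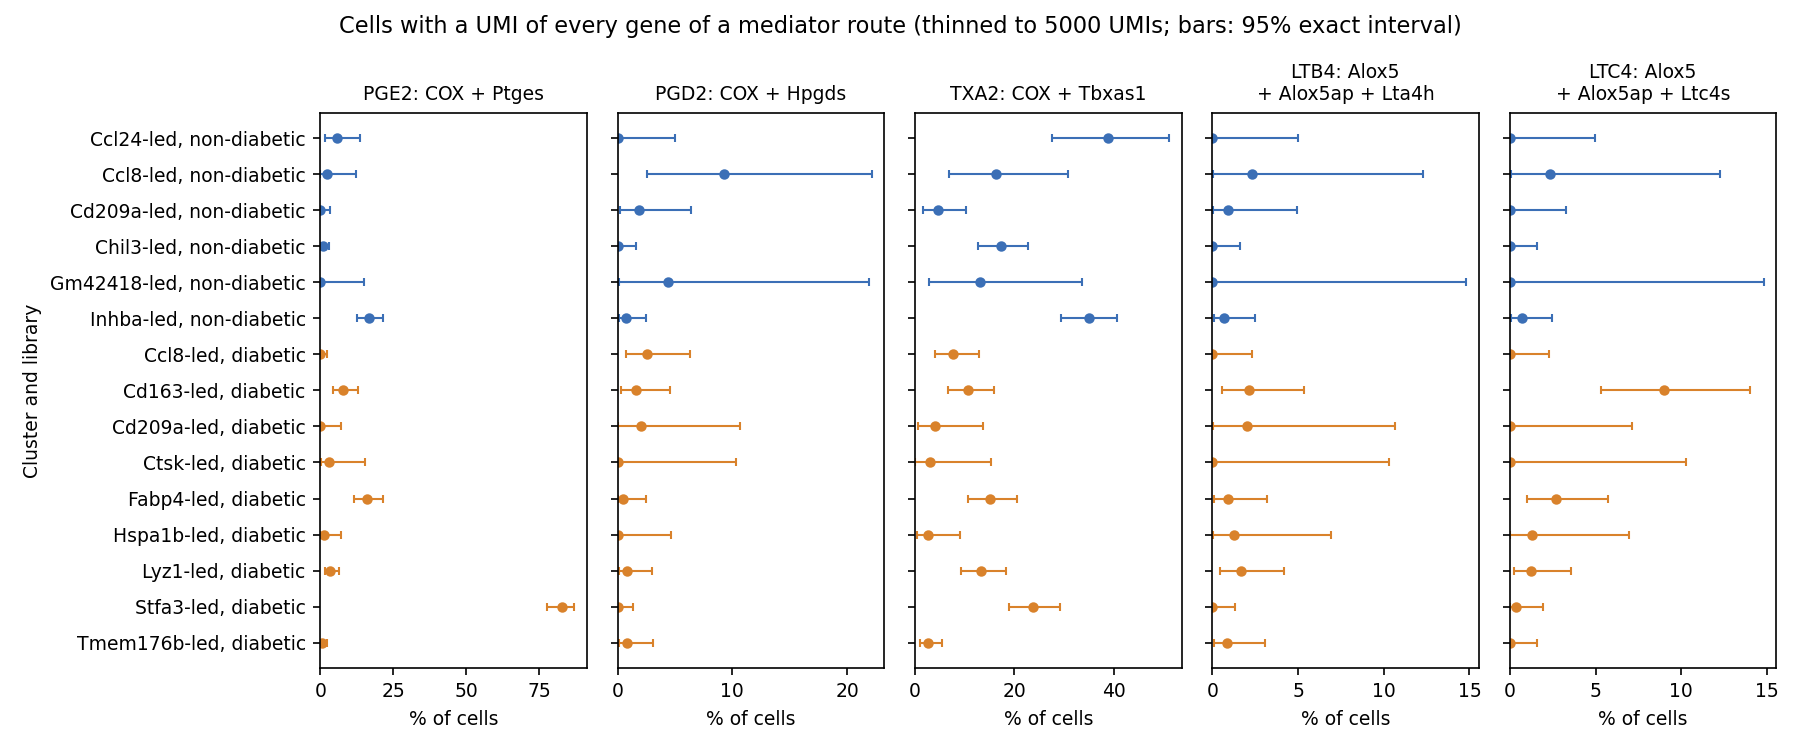
Share of cells (percent, thinned to 5000 UMIs, with 95% exact intervals) that held a UMI of every gene of each of the 5 routes, by cluster and library. The prostaglandin E2 route reached 82.6% of the diabetic Stfa3-led cells and the thromboxane route 38.9% of the non-diabetic Ccl24-led cells, while the leukotriene C4 route reached 8.99% of the diabetic Cd163-led cells.

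The libraries were also compared within the Ccl8-led and the Cd209a-led cluster. In the Ccl8-led macrophage-like cells 1 of 9 genes was higher in the diabetic library, Ptgs1, from 1 and 20 UMIs. The interval of the Ptgs1 log2 ratio, -0.61 to 7.40, spans 0. Ptgs2 (887 and 470 CPM), Alox5 (21 and 12.2 CPM) and Ltc4s (56.6 and 28.7 CPM) were lower. The Alox5 values rested on 13 and 37 UMIs, and the interval of its log2 ratio, -1.73 to 0.25, spans 0. The immediate early list of those cells summed to 8997 CPM in non-diabetic and 7934 CPM in diabetic cells, and its part in the Ptgs2 difference was not tested. Of all genes measured there, 13.1% were higher and 16.0% lower. The median log2 ratio of the 9 genes was -0.31, beside -0.03 for all genes measured there. In the Cd209a-led cells none of 5 measured genes passed 1.5-fold in either direction, where 9.09% of all genes were higher and 17.3% lower. Ptges had at most 21 UMIs per library in these clusters, so its library difference could not be followed there.

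Of 51 other genes of the pathway, 31 had at least 20 UMIs, of which 7 were at least 1.5-fold higher and 4 lower in the diabetic library, by the rule that called 18.7% of all measured genes higher and 12.9% lower. The median log2 ratio of the 31 genes was 0.15, beside 0.12 for all genes. The counts by group that follow cover 3 to 8 genes each and stand beside the same 2 shares. In the group listed for phospholipid and arachidonate handling 3 of 8 genes were higher and 0 lower. These were Pla2g7, a platelet-activating factor hydrolase gene (366 and 794 CPM), and the lysophospholipid acyltransferase genes Lpcat2 (58.9 and 104 CPM) and Lpcat3 (18.5 and 29.7 CPM). Pla2g4a, the cytosolic phospholipase that frees arachidonate, was at 59.6 and 80.6 CPM, within 1.5-fold. By cell state Pla2g4a was highest in the cells with the highest Ptges, at 204 CPM in the Stfa3-led and 121 CPM in the Inhba-led cells.

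Among other prostanoid enzymes 1 of 6 was higher and 1 lower. The further prostaglandin E synthase genes Ptges2 (9.01 and 10.4 CPM) and Ptges3 (118 and 131 CPM) were within 1.5-fold. Ptges3 had a UMI in 69.5% of non-diabetic and 79.0% of diabetic cells. Cells without the prostaglandin E2 route as counted above may thus still hold transcripts of such a synthase. Fam213b, a prostaglandin F synthase gene, was at 21.2 and 77.1 CPM. Ptgis, the prostacyclin synthase gene, was lower, but its 35 non-diabetic UMIs came from 2 cells. The prostaglandin-degrading dehydrogenase gene Hpgd was found at 16.0 CPM in non-diabetic and 0.887 CPM in diabetic cells, 17.8-fold lower (log2 ratio -4.15, interval -4.80 to -3.60). It had 41 non-diabetic and 0 diabetic UMIs in the Cd209a-led cells, and 19 and 0 UMIs in the Ccl8-led cells. Ptgr1, the next enzyme of that breakdown, differed the other way, at 22.1 and 52.7 CPM, so 1 of the 4 breakdown and transport genes was higher and 1 lower.

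Other lipoxygenase and leukotriene enzymes had 1 of 7 higher and 1 lower. Mgst2, which can also make leukotriene C4, was at 1.36 and 6.41 CPM and highest in the Stfa3-led cells at 22.4 CPM. Cyp4f18, a leukotriene B4 hydroxylase gene, was at 147 and 55.8 CPM. Of the receptors, the prostaglandin E2 receptor gene Ptger2 was lower, at 14.9 and 7.10 CPM, whereas Ptger4, another receptor for it, was at 41.3 and 41.8 CPM. Fpr2, a receptor of lipid and peptide ligands, was higher, at 48.5 and 193 CPM, and the leukotriene receptor genes Ltb4r1 (199 and 139 CPM) and Cysltr1 (79.0 and 73.6 CPM) were within 1.5-fold.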

How the data were processed

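The authors deposited unnormalized UMI counts for each gene in each barcode, made with Cell Ranger 3.0.2 per the file headers. The genome build, mm10, comes from the submitters' processing notes, and the release of the gene annotation is not given in the sources used here. All lists and the 9 genes were chosen with earlier results of these data known, and the immediate early list was written after the clusters were seen. Groups came from the labelled disease state.

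UMI counts were summed per library or cluster and divided by the sum's total (CPM). The log2 ratios used sums with 0.5 added. A gene was measured at 20 UMIs or more. Intervals were exact Poisson, Clopper-Pearson or conditional binomial, checked on simulated Poisson sums. Clustering used scanpy 1.11.5 and leidenalg 0.10.2 (2000 variable genes, 30 components, 15 neighbours, resolution 1, no batch correction) in Python 3.11.15. Cluster names needed at least 3 markers and 50% of a list at 2-fold in 10% of cells, a rule set after the data were seen. The results of 1 cluster are not reported here, and its cells remain in the library totals. Scrublet marked 3 and 5 cells, which were kept, so doublets may remain. Named genes were all 9 members, any measured pathway gene, and the 3 genes most correlated with a member over the 15 combinations in log2(CPM + 10), among genes with 500 UMIs or more. Of the features, 71 share a symbol (Dpep2 among them) and were not used. Alternatives covered cell filters, doublets, clusters left out, clustering, depth, the route rule and scaling (edgeR 4.0.16, DESeq2 1.42.0, R 4.3.3). Copies were sought with BLAST 2.17.0.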

Additional observations from a re-analysis of the deposited data

Results flagged for a closer look

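Within the Ccl8-led and the Cd209a-led cluster, Ptgs2 had opposite directions in different cell states, with 1 library per condition, and the difference between them was not tested. Its log2 ratio of diabetic over non-diabetic was -0.92 in the Ccl8-led cells (interval -1.06 to -0.77). In the Cd209a-led cells it was 0.40 (interval 0.24 to 0.55), a 1.32-fold difference that lay within 1.5-fold.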

How the results depend on the processing

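No paired analysis was possible because each condition has 1 library and no replicate numbers, and for the same reason no replicate could be left out. The number of the 9 genes at least 1.5-fold higher stayed between 2 and 4 under the 17 alternatives. It was 2 after thinning to 5000 UMIs, where Hpgds was at 0.18 and Ltc4s at 0.15. The number lower became 0 without the Cd163-led cluster and 2 with the mean of the cells' CPM, where Ptgs1 was at -0.66. The median log2 ratio of the 9 genes was 0.49 without the Inhba-led cluster. Leaving out a cluster, an alternative chosen after seeing the data, turned 3 genes: Ptges to -0.15 without the Stfa3-led, Ptgs2 to 0.49 without the Inhba-led and Ltc4s to -0.19 without the Cd163-led cluster. Without every cluster taken over 90% from 1 library, Ptges was at 1.24, Alox5 at 0.25 and Ptgs2 at -0.22. That Ptges value rested on few UMIs. Among the reported clusters left in, the non-diabetic and diabetic cells had 3 and 21 in the Ccl8-led cluster. The Cd209a-led cluster had 1 and 1, and the Ctsk-led cluster 4 and 14. Of the 5 routes, 3 were more frequent in the diabetic library at 1 UMI of each gene, 4 without thinning and 1 at 2 or more UMIs, where 3 routes had 0 diabetic cells. The thinned intervals of the libraries overlapped for the leukotriene B4 and prostaglandin D2 routes. TMM and DESeq2 scaling moved the median of all genes from 0.12 to 0.01 and 0.00. The highest level lay in the same cells for 5 of the 9 genes at a clustering resolution of 0.5 and for 7 to 8 under 3 other clusterings. Apart from the changes that follow from leaving out cells or UMIs, the cause was not tested. Low counts limit Ptgs1, Hpgds and Alox5 most.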
